A study of Mus musculus with 2 samples.

Results

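Foxp3-positive cells were chosen by their Foxp3 count alone: they were the barcodes with at least 1 UMI (unique molecular identifier, 1 captured transcript) of Foxp3, the transcription factor that defines regulatory T (Treg) cells, among the barcodes with at least 500 UMIs, at least 250 genes and at most 10% of UMIs from mitochondrially encoded genes. They numbered 70 of 508 cells, 46 of 352 in the library from the wild-type (WT) host and 24 of 156 in the library from the MARCH1-/- host. The other 438 cells, 306 and 132, had no Foxp3 UMI and serve as the comparison; some of them can be cells whose Foxp3 transcripts were missed.

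The study followed lung CD4 T cells of mice sensitized to house dust mite, an allergen source, after their transfer into 2 kinds of host. Donor mice were sensitized on day 0 and exposed again on days 7 to 11. On day 14 their lung CD4 T cells took up Cell Trace Violet, a dye that daughter cells share out, and were transferred. One host was C57BL/6 (WT) and the other MARCH1-/-, lacking a ubiquitin ligase that removes MHC class II and CD86 from antigen-presenting cells; the donors were WT in both arms, so the T cells themselves were MARCH1-sufficient. Both hosts were challenged with house dust mite, and after 4 days the donor CD4 T cells low in dye, and so descended from dividing cells, were sorted out of the lung and run as 1 single-cell 3′ library per host. The labels used here give neither the age of the mice nor how many were used or pooled.

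Foxp3 programs CD4 T cells to restrain other immune cells. Treg cells take up IL-2 through a high-affinity receptor that contains Il2ra, strip costimulatory ligands from antigen-presenting cells with CTLA-4, and release IL-10 and other mediators. In the lung, Treg cells limit type 2 inflammation, the response led by IL-4, IL-5 and IL-13, and a tissue-adapted form expresses KLRG1, ST2 (Il1rl1), GATA3 and the repair factor amphiregulin.

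With 1 library per host there was no test between hosts, and cells of 1 library are not replicates. Levels are UMIs per 1e6 UMIs (CPM) of the summed cells of a group, and intervals are exact 95% intervals that cover counting error only; they are too narrow where a gene's UMIs sit in few cells. The Foxp3-positive cells of the WT and the MARCH1-/- host held 360694 and 225546 UMIs, against 2210354 and 1350035 in the Foxp3 = 0 cells. Median UMIs per cell were 6596.5 in Foxp3-positive and 5925.5 in Foxp3 = 0 cells of the WT host, and 6400.5 and 8345 in the MARCH1-/- host. The largest Foxp3-positive cell held 8.02% of its group's UMIs (WT host) and 14.4% (MARCH1-/- host). Every barcode of a Foxp3-positive cell was also listed in the other library, where it held at most 32 and 76 UMIs, none of Foxp3, and no such barcode was called as a cell in both.

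The shares of Foxp3-positive cells in the 2 libraries had overlapping counting intervals. The share was 13.1% in the WT host (exact interval 9.73 to 17.0) and 15.4% in the MARCH1-/- host (10.1 to 22.0). After each cell was thinned to 1000 UMIs, which left out 11 cells of the WT host, the shares were 3.52% and 6.41%, and over all possible draws 3.86% and 4.83% were expected. Foxp3 RNA outside cells was measured in barcodes of at most 100 UMIs. It would have placed a Foxp3 UMI in 0.0343% and 0.00745% of cells if a cell took up the mean of such a barcode, 6.52 and 2.70 UMIs, and in 0.524% and 0.275% if it took up 100.

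Foxp3 itself chose the cells, and its counts are given as a description. It had 96 UMIs (266 CPM) in the library of the WT host and 56 (248 CPM) in that of the MARCH1-/- host, with at most 8 and 7 in 1 cell. Of the cells from the WT host, 22 had 1 Foxp3 UMI, 12 had 2, 6 had 3 and 6 had 4 or more. In the MARCH1-/- host these numbers were 10, 4, 6 and 4.

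The label was checked against 3 other Treg markers: Ikzf2, which encodes the Treg-associated factor Helios, Izumo1r, which encodes folate receptor 4, and Ctla4, the inhibitory receptor. Of the 46 Foxp3-positive cells of the WT host, 26 had a UMI of 2 of the 3 and 8 of all 3, and of the 24 of the MARCH1-/- host 10 had 2 and 12 had 3. Of the 306 Foxp3 = 0 cells of the WT host 73 had 2 and 26 had 3, and of the 132 of the MARCH1-/- host 50 had 2 and 19 had 3. None of the 3 was found in 2 Foxp3-positive cells of the WT host and 0 of the MARCH1-/- host, against 49 and 8 Foxp3 = 0 cells. All 12 markers of CD4 T cells on the list were measured and none differed 2-fold between Foxp3-positive and Foxp3 = 0 cells in either library.

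Markers of other cells were few, except for the 8 markers of type 2 innate lymphoid cells. These summed to 489 UMIs in Foxp3-positive cells of the WT host and 413 of the MARCH1-/- host. Their level was 1356 against 1345 CPM in Foxp3 = 0 cells of the WT host, and 1831 against 1347 CPM in the MARCH1-/- host. That list holds Klrg1, Il1rl1, Gata3 and Areg, which tissue Treg cells also express. Summed over each list, Foxp3-positive cells of the WT and the MARCH1-/- host held 5 and 1 UMIs of 2 CD8 markers, with Cd8a at 0, no UMI of 8 natural killer cell markers or of 10 granulocyte markers, and 0 and 2 of 6 gamma-delta T cell markers. The 9 B cell markers summed to 22 and 13 UMIs, of which Cd74 gave 21 and 11, and Ms4a1, Pax5 and Cd79a were at 0. The 12 macrophage markers gave 52 and 24 UMIs, of which Ctss gave 50 and 23. The 12 dendritic cell markers gave 15 and 1, and the 12 epithelial, endothelial and stromal markers 32 and 22, mostly Pecam1. Some lists were also set against Foxp3 = 0 cells. B cell markers summed to 61.0 against 12.7 CPM in the WT host and 57.6 against 34.8 CPM in the MARCH1-/- host. Dendritic cell markers were at 41.6 against 11.3 CPM and 4.43 against 14.8 CPM, and macrophage markers at 144 against 90.0 CPM and 106 against 98.5 CPM. The natural killer and gamma-delta T cell lists were lower than in Foxp3 = 0 cells in both libraries. Pecam1, an adhesion molecule, was at 72.1 against 35.7 CPM in the WT host and 84.2 against 41.5 CPM in the MARCH1-/- host. The part of such RNA in the values below was not tested.

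**Figure D1:**
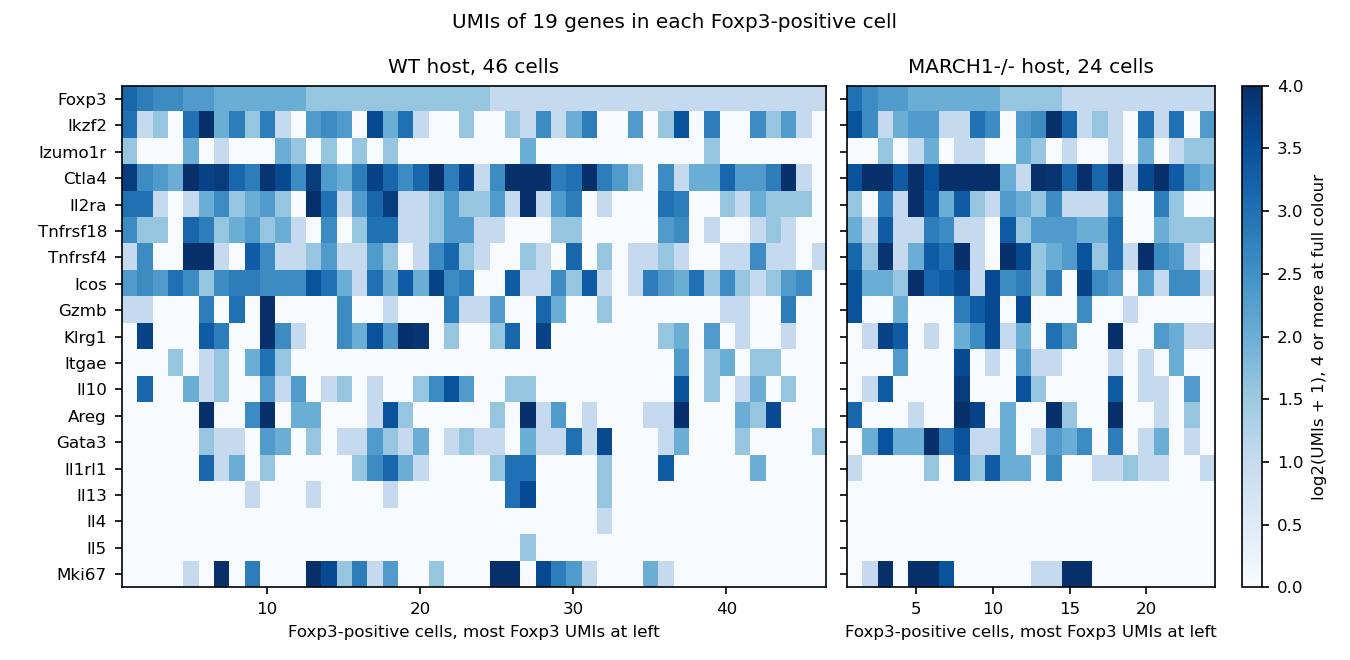
UMIs of 19 genes (vertical axis) in each of the 46 and 24 Foxp3-positive cells (horizontal axis, most Foxp3 UMIs at left), on a log2(UMIs + 1) colour scale. Ctla4 is seen in nearly every cell, Klrg1 and Gzmb in part of the cells, and Il13 in 6 cells of the WT host and none of the MARCH1-/- host.

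Against Foxp3 = 0 cells, Foxp3-positive cells of both libraries held more Ikzf2, Klrg1, Gzmb, Itgae, Ctla4 and Icos, and far less Il4, Il13, Tnfsf8 and Bcl2. Of 4813 genes with at least 100 UMIs over all cells, 26 were at least 2-fold higher in both libraries (0.54%) and 71 at least 2-fold lower in both (1.48%). Foxp3-positive cells held 14.0% and 14.3% of the UMIs of all cells. Lower genes could thus reach that minimum through Foxp3 = 0 cells alone, while some higher genes, such as Gzmb, reached it only with their Foxp3-positive UMIs. The 2 counts are therefore not compared with each other. Within the library of the WT host 1.99% of genes were 2-fold higher and within that of the MARCH1-/- host 2.83%, and 5.11% and 6.61% were 2-fold lower. The median log2 ratio over all 4813 genes was -0.01 and 0.00.

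Of the Treg identity list, 14 of 20 genes were measured, 10 were higher in both libraries by any amount and 3 lower in both; over all genes 28.7% were higher in both and 29.3% lower in both. The list's median log2 ratio was 0.42 and 0.82. A 2-fold difference in both libraries was reached upward by 2 of the 14 genes, Ikzf2 and Ctla4, and downward by 1, Cd83, an activation marker with 2 and 0 UMIs in Foxp3-positive cells against 69 and 46.

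Ikzf2 (chr1:69531214-69687245, minus strand, GRCm38) had 147 UMIs in 32 of the 46 Foxp3-positive cells of the WT host and 96 in 21 of 24 of the MARCH1-/- host. Its level was 408 CPM against 99.5 CPM in Foxp3 = 0 cells of the WT host, and 426 against 124 CPM in the MARCH1-/- host. The ratio was 4.10-fold (interval 3.30 to 5.07) and 3.42-fold (2.63 to 4.42). In cells thinned to 1000 UMIs, 36.4% of Foxp3-positive and 9.76% of Foxp3 = 0 cells of the WT host had an Ikzf2 UMI, and 33.3% and 13.6% in the MARCH1-/- host; unthinned the shares were 69.6% and 29.7%, and 87.5% and 40.2%. Helios RNA was thus higher in Foxp3-positive cells of both libraries and was also seen in part of the Foxp3 = 0 cells.

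Ctla4 (chr1:60887000-60915832, plus strand) was found in 44 of 46 and in 24 of 24 Foxp3-positive cells. Its level was 1087 against 480 CPM (WT host) and 1649 against 785 CPM (MARCH1-/- host), a ratio of 2.26-fold (2.01 to 2.54) and 2.10-fold (1.86 to 2.37). Izumo1r was at 61.0 against 32.1 CPM and 102 against 57.8 CPM, below 2-fold in both.

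The receptor genes Il2ra, Tnfrsf18 and Tnfrsf4 were below 2-fold in at least 1 library. Il2ra, the alpha chain of the IL-2 receptor, was at 466 against 299 CPM in the WT host and 350 against 138 CPM in the MARCH1-/- host, and its ratio passed 2-fold in the MARCH1-/- host alone (1.56-fold and 2.54-fold). Tnfrsf18, which encodes GITR, was 1.55-fold and 1.57-fold higher. Tnfrsf4, which encodes OX40, was 1.31-fold and 1.88-fold higher, with 42 of its 140 UMIs in 1 cell of the WT host; among cells with no UMI of the cycling genes Mki67 and Top2a, its log2 ratio in the WT host was -0.30. Entpd1, which encodes CD39, an enzyme that degrades extracellular ATP, was at 94.3 against 41.2 CPM and 48.8 against 25.2 CPM. Nrp1, a surface receptor common on thymus-derived Treg cells, went the other way at 41.6 against 108 CPM and 79.8 against 127 CPM, though its log2 ratio in the MARCH1-/- host was 0.39 among cells without those cycling genes. Of 12 genes measured from the list on the IL-2 receptor and STAT5, none was 2-fold higher and 1 was 2-fold lower in both libraries. The medians were 0.03 and 0.41.

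Regulators that bind Foxp3 or act on its locus had no 2-fold difference shared by the libraries. Of 19 measured, none was 2-fold higher or lower in both, and 3 were higher and 6 lower in both by any amount. The medians were -0.06 and -0.10. Within the WT host 0 were 2-fold higher and 3 lower, and within the MARCH1-/- host 1 was higher and 1 lower. Over all genes 5.11% and 6.61% were 2-fold lower. Uhrf1, a maintenance factor for DNA methylation, was at 72.1 against 48.4 CPM in the WT host and 44.3 against 100 CPM in the MARCH1-/- host.

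Among effector and tissue Treg genes, 23 of 26 were measured, 12 were higher and 5 lower in both libraries, and 5 were 2-fold higher in both: Gzmb, Klrg1, Prdm1, Tnfrsf1b and Tnfrsf9. The medians, 0.30 and 0.37, were far below the ratios of the leading genes. Pparg, a nuclear receptor, was the 1 gene 2-fold lower in both, with 9 and 3 UMIs in Foxp3-positive cells.

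Gzmb (chr14:56258838-56262260, minus strand), which encodes the protease granzyme B, had 91 UMIs in 17 Foxp3-positive cells of the WT host against 22 UMIs in 9 of 306 Foxp3 = 0 cells. In the MARCH1-/- host it had 56 UMIs in 8 cells against 35 in 9 of 132. Its levels were 252 and 9.95 CPM in the WT host and 248 and 25.9 CPM in the MARCH1-/- host, 25.3-fold (15.8 to 42.4) and 9.58-fold (6.17 to 15.05) higher. One cell of the WT host gave 37 of the 91 UMIs. Thinned, 13.6% of Foxp3-positive and 0.673% of Foxp3 = 0 cells of the WT host had a Gzmb UMI, and 6 of 24 and 4.55% in the MARCH1-/- host; unthinned, 37.0% and 33.3% of Foxp3-positive cells did.

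Klrg1 (chr6:122270596-122282882, minus strand), a receptor of differentiated lymphocytes, had 140 UMIs in 21 Foxp3-positive cells of the WT host and 86 in 16 of the MARCH1-/- host. It was at 388 against 48.9 CPM and 381 against 82.2 CPM, 7.94-fold (6.14 to 10.3) and 4.64-fold (3.46 to 6.20) higher. Thinned, 31.8% of Foxp3-positive and 3.70% of Foxp3 = 0 cells of the WT host had a Klrg1 UMI, and 41.7% and 4.55% in the MARCH1-/- host; unthinned, 45.7% and 66.7% of Foxp3-positive cells did.

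Itgae (chr11:73090583-73147446, plus strand), the integrin chain CD103 that binds epithelial E-cadherin, had under 100 UMIs and was chosen after its values were seen. It had 30 UMIs in 11 Foxp3-positive cells against 5 in 3 Foxp3 = 0 cells of the WT host, and 27 in 9 against 10 in 6 in the MARCH1-/- host. This was 83.2 against 2.26 CPM and 120 against 7.41 CPM, 36.8-fold (14.1 to 121) and 16.2-fold (7.58 to 37.4).

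Prdm1, which encodes the effector regulator Blimp-1, was 2.65-fold and 2.90-fold higher, at 80.4 against 30.3 CPM in the WT host and 70.9 against 24.4 CPM in the MARCH1-/- host. Among cells with no UMI of the cycling genes Mki67 and Top2a, 20 and 11 Foxp3-positive cells, its log2 ratio in the MARCH1-/- host was -0.29. Tnfrsf9, which encodes 4-1BB, was 3.06-fold and 2.70-fold higher, and its log2 ratio among those cells of the WT host was -0.12. Tnfrsf1b, which encodes TNF receptor 2, was 2.16-fold and 2.49-fold higher. Icos, a costimulatory receptor, was found in 42 of 46 and 22 of 24 Foxp3-positive cells and was 2.02-fold and 1.94-fold higher.

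Mediators of suppression and repair were less clear. Il10 was at 194 against 138 CPM in the WT host, where it was 1.40-fold higher, and at 222 against 68.9 CPM in the MARCH1-/- host, where it was 3.22-fold higher. In cells of at least 5000 UMIs its log2 ratio in the WT host was -0.69, and it was 1.34 where each cell's CPM was averaged. Areg, which encodes amphiregulin, was at 441 against 358 CPM and 607 against 356 CPM, with 49 of 159 and 42 of 137 UMIs in 1 cell each, and its log2 ratios among cells without a Mki67 or Top2a UMI were -2.07 and -0.43. Il10 was seen in 21 of 46 and 9 of 24 Foxp3-positive cells and Areg in 19 and 10.

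Receptors that guide cells gave a mixed picture, with 20 genes measured, 2 of them 2-fold higher and 1, Ccr7, 2-fold lower in both libraries. Itgb1, the beta-1 integrin chain, was at log2 ratios of -1.91 and -0.99.

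Other genes leading the higher side were Glrx, a glutaredoxin, at log2 ratios of 1.59 and 1.29, Mxd1, a Myc antagonist, at 1.52 and 1.30, Gimap7, a lymphocyte GTPase, at 1.27 and 2.07, Pglyrp1, a peptidoglycan-binding protein, at 1.42 and 1.67, and Arl5c at 2.03 and 1.67. Glrx was found in 34 of 46 and 22 of 24 Foxp3-positive cells, and Mxd1 in 31 and 14.

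**Figure D2:**
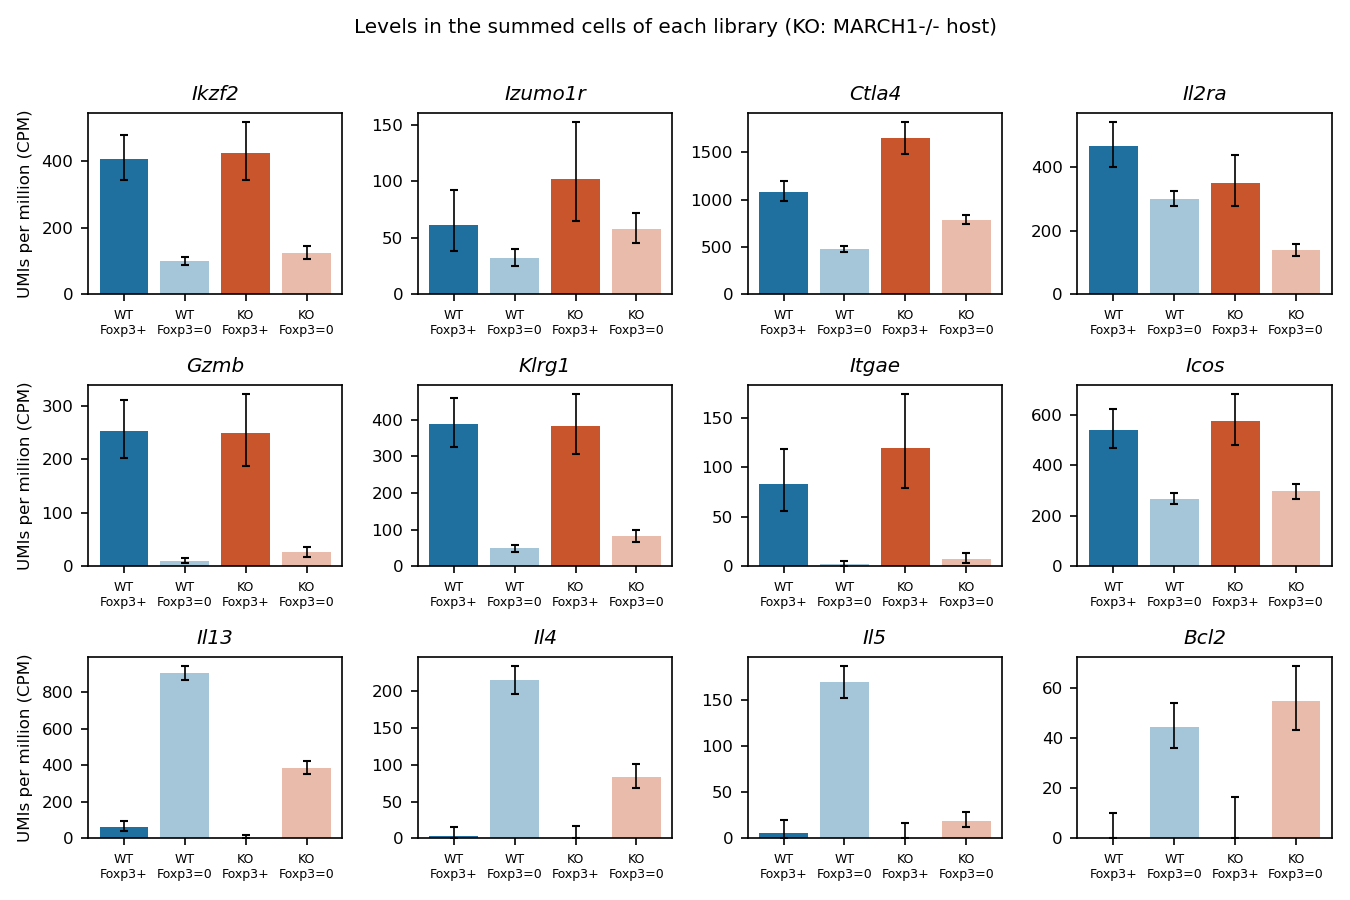
Levels of 12 genes in CPM (vertical axes, each from 0) in the summed Foxp3-positive and Foxp3 = 0 cells of each library, with exact 95% Poisson intervals as error bars. Ikzf2, Ctla4, Gzmb, Klrg1 and Itgae stand higher in Foxp3-positive cells of both libraries and Il13, Il4 and Bcl2 lower.

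Effector cytokine and Th2 genes were mostly lower in Foxp3-positive cells, and the Th1 and Th17 lists were mixed. Of 11 cytokine genes measured, 7 were 2-fold lower in both libraries and none 2-fold higher in both, with medians of -3.83 and -2.48; bounds stand in for genes at 0. At least 1 UMI of Il4, Il5 or Il13 was found in 6 of 46 Foxp3-positive cells of the WT host (13.0%, 4.94 to 26.3) and in 0 of 24 of the MARCH1-/- host, which allows up to 14.2%, against 42.8% and 43.2% of Foxp3 = 0 cells. Thinned to 1000 UMIs per cell, Il13 was found in 0 of 44 and 0 of 24 Foxp3-positive cells and in 21.2% and 19.7% of Foxp3 = 0 cells.

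Il13 (chr11:53631324-53634702, minus strand) had 23 UMIs in 6 Foxp3-positive cells of the WT host, 11 of them in 1 cell, against 1998 in 112 Foxp3 = 0 cells. In the MARCH1-/- host it had 0 against 521 in 49. It was 14.2-fold lower in the WT host and, against a floor of 3 UMIs over the group, at least 29.0-fold lower in the MARCH1-/- host. Il4 had 1 and 0 UMIs in Foxp3-positive cells against 475 and 113, and Il5 had 2 and 0 against 374 and 26. Il17a, the cytokine of type 17 helper cells, had 2 and 0 against 300 and 145.

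Of 16 Th2 genes measured, 7 were 2-fold lower in both libraries and 12 lower by any amount, with medians of -1.13 and -1.14. Gata3, the Th2 regulator that tissue Treg cells also use, was at 172 against 377 CPM in the WT host and 350 against 407 CPM in the MARCH1-/- host. Il1rl1, the IL-33 receptor ST2, was at 175 CPM in Foxp3-positive cells of the WT host and 182 CPM of the MARCH1-/- host, with log2 ratios of -0.45 and -0.25. Averaged over cells, the log2 ratio of Il1rl1 in the MARCH1-/- host was 0.26. Both genes were detected in Foxp3-positive cells: Gata3 had 62 and 79 UMIs and Il1rl1 63 and 41.

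Of 10 Th1 and cytotoxic genes measured, 1, Gzmb, was 2-fold higher and none 2-fold lower in both libraries, and the medians, -0.48 and 0.41, differed in sign. Ifng, which encodes interferon gamma, had 0 UMIs in Foxp3-positive cells of the WT host against 156, and 14 UMIs in 3 cells of the MARCH1-/- host, 12 of them in 1 cell, against 19. Nkg7, a cytotoxic granule gene, was at log2 ratios of 0.56 and 0.72. Of 6 Th17 genes measured, 1, Il17a, was 2-fold lower in both libraries and 4 were 2-fold lower in the MARCH1-/- host, with medians of -0.12 and -2.07. Tmem176b had 18 and 1 UMIs in Foxp3-positive cells against 101 and 74.

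The surface ligand gene Tnfsf8 and the survival gene Bcl2 were among the lowest. Tnfsf8, which encodes CD30 ligand, had 20 and 2 UMIs in Foxp3-positive cells against 1849 and 431, 15.1-fold and 36.0-fold lower; with 2 UMIs, the second fold has a counting interval of 9.91 to 298. Bcl2 (chr1:106538178-106714274, minus strand), which encodes a protein that blocks apoptosis, had no UMI in any of the 70 cells against 98 UMIs in 55 and 74 in 24 Foxp3 = 0 cells, at least 5.33-fold and 4.12-fold lower against the same floor. Plac8 had 29 and 1 UMIs against 1403 and 488, with 17 of the 29 in 1 cell. Tnfsf11, which encodes RANK ligand, was at log2 ratios of -2.36 and -1.98, and Cd200, an inhibitory ligand, at -1.92 and -1.83 (-4.15 to -0.22, from 3 UMIs). Gclc, which makes the rate-limiting subunit of glutathione synthesis, had 5 and 3 UMIs against 264 and 173, and Tcf7, a factor of naive and memory cells, had 4 and 3 against 94 and 108, each within 1 cell.

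The lower side also held Irf2bp2, a transcriptional corepressor, at log2 ratios of -2.52 and -3.54 (-6.60 to -1.66, from 2 UMIs), Fdx1, a mitochondrial ferredoxin, at -2.29 and -2.56 (-4.86 to -0.98, from 3 UMIs), Ccdc50 at -2.36 and -2.46, Igfbp7, a secreted binding protein, at -1.58 and -2.15, and Vdr, the vitamin D receptor, with 0 UMIs in the MARCH1-/- host and 4, all in 1 cell, in the WT host. Cysltr1, a leukotriene receptor, had no UMI in the 70 cells against 59 and 41. Cd4 itself was at 272 against 518 CPM and 182 against 290 CPM.

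**Figure D3:**
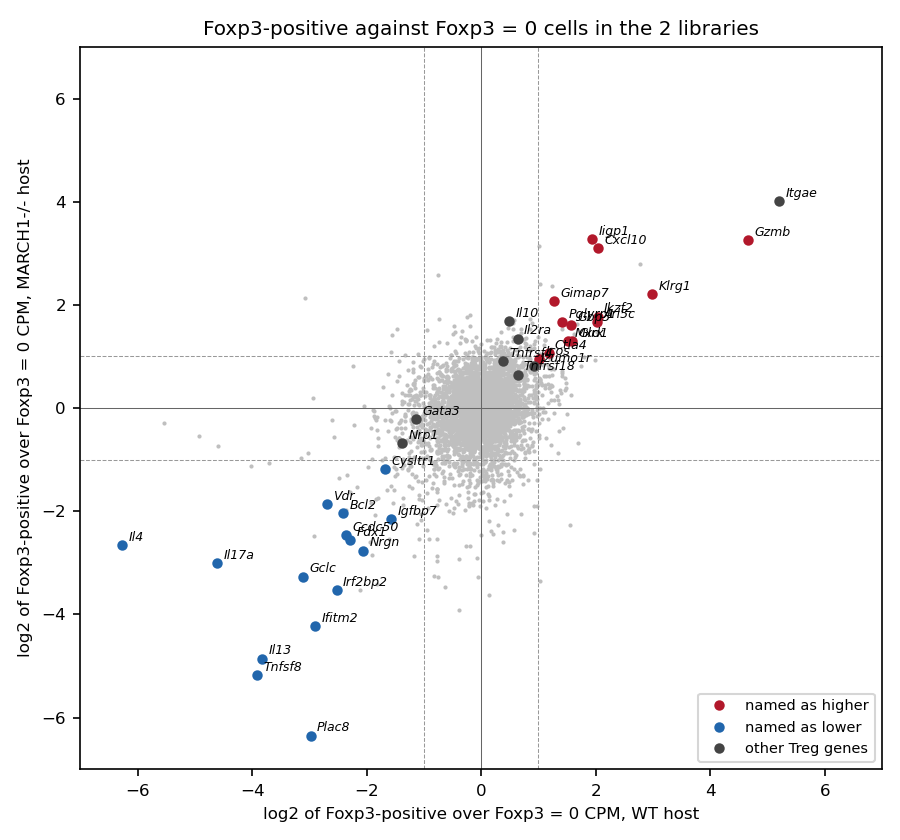
Log2 ratio of Foxp3-positive to Foxp3 = 0 cells for 4813 genes, in grey, with the WT host on the horizontal and the MARCH1-/- host on the vertical axis. The named higher and lower genes are in colour, and dashed lines mark 2-fold. Itgae, Il2ra, Tnfrsf18, Tnfrsf4, Izumo1r, Nrp1, Il10 and Gata3 were added in dark grey as other Treg genes. Gzmb, Klrg1 and Itgae lie at the upper right and Il4, Tnfsf8, Il13 and Plac8 at the lower left; genes at 0 are placed at their bound.

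Many Foxp3 = 0 cells held type 2 cytokine RNA, and Foxp3-positive cells were also set beside 2 parts of them: 131 and 57 cells with a UMI of Il4, Il5 or Il13, and 175 and 75 without one. Ikzf2 and Klrg1 stood above the cells without a type 2 cytokine too: Ikzf2 was at 408 against 110 CPM in the WT host and 426 against 167 CPM in the MARCH1-/- host, and Klrg1 at 388 against 13.2 CPM and 381 against 77.3 CPM. Il2ra gave another order. It was at 473 CPM in the WT-host cells with a type 2 cytokine, beside 466 CPM in Foxp3-positive cells and 110 CPM in cells without one; in the MARCH1-/- host these were 151, 350 and 124 CPM. Il1rl1 was at 396 and 351 CPM in cells with a type 2 cytokine and at 68.9 and 69.5 CPM in those without, so the 175 and 182 CPM of Foxp3-positive cells lay between them. Areg was at 441 and 607 CPM in Foxp3-positive cells, at 587 and 502 CPM in cells with a type 2 cytokine and at 110 and 196 CPM in those without one.

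Interferon-induced genes leaned upward, mostly in the MARCH1-/- host and partly through single cells. Of 20 measured, 12 were higher in both libraries and none lower in both; 2 were 2-fold higher within the library of the WT host and 9 within that of the MARCH1-/- host, with medians of 0.15 and 0.95. An alternative added after the data were seen left out the Foxp3-positive cell of each library richest in these genes by share of its UMIs. Then 18 were measured, 1 and 6 were 2-fold higher, and the medians were 0.09 and 0.53. In the WT host the cell left out held no UMI of Ifit3, 1 of these genes. The cell with 15 of the 17 Ifit3 UMIs of that host stayed in. In the MARCH1-/- host the cell left out held all 22 Ifit3 UMIs. Among cells without a Mki67 or Top2a UMI 9 were measured, 0 and 3 were 2-fold higher, and the medians were -0.18 and 0.73. Igtp, an interferon-induced GTPase, was 2.33-fold and 2.21-fold higher, with 38 UMIs in 18 cells and 27 in 11; among cells without those cycling genes its log2 ratio in the WT host was -0.023. Gbp2, another of these GTPases, was at 61.0 against 33.0 CPM and 129 against 40.7 CPM, and its log2 ratio in the WT host was -0.83 among cells without those genes.

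Cxcl10, a chemokine induced by interferon, and Gbp3 and Iigp1, interferon-induced GTPases, were among the leading higher genes. Cxcl10 had 73 UMIs in 6 Foxp3-positive cells of the WT host, 33 in 1 cell, and 53 in 4 cells of the MARCH1-/- host, 42 in 1 cell. Its ratios were 4.10-fold and 8.57-fold, and among cells without a Mki67 or Top2a UMI its log2 ratios were -2.06 and 5.45. Without the cell richest in interferon genes its log2 ratio in the MARCH1-/- host was 0.87, below 2-fold. Gbp3 was spread over 17 and 12 cells, at 83.2 against 28.1 CPM and 111 against 36.3 CPM, 2.97-fold and 3.05-fold higher. Iigp1 had 35 UMIs in 10 cells and 13 in 3 and was 3.83-fold and 9.73-fold higher; its log2 ratio in the WT host was 0.17 among cells without a Mki67 or Top2a UMI.

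The start regions of Cxcl10, Gbp3, Gbp2 and Igtp are shown because they hold the letters of the interferon-stimulated response element, the site bound by factors that carry interferon signals. The letters TTTC, any 2 bases and TTTC again were searched on both strands in the 250 bases before the start in RefSeq promoters of GRCm38.p6. The match was found in 13 of 19 promoters matched from the interferon list (68.4%), in 2 of 8 matched from the 15 leading higher genes, Cxcl10 and Gbp3, in 2 of 13 matched from the 15 leading lower genes, Il4 and Ifitm2, and in 936 of all 27025 promoters (3.46%). A match describes the letters and is not evidence of binding. Below, capitals mark the match, read in the direction of the gene; Cxcl10 and Igtp carry it on the opposite strand, where it appears as its reverse complement. The windows are chr5:92349063-92349132 (minus strand) for Cxcl10, chr3:142559969-142560038 (plus) for Gbp3, chr3:142620574-142620643 (plus) for Gbp2 and chr11:58199492-58199555 (plus) for Igtp.
Cxcl10: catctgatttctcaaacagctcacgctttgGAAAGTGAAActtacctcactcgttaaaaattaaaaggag
Gbp3: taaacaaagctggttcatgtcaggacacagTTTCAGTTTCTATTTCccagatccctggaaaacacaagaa
Gbp2: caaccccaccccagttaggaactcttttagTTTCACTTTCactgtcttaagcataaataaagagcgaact
Igtp: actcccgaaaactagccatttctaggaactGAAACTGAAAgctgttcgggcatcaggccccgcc
The match began 213 bases before the start of Cxcl10, 45 before Gbp3, 59 before Gbp2 and 34 before Igtp, and Gbp3 held overlapping matches. The forkhead letters TGTTTAC, searched the same way, were in 1 of the 8 matched leading higher genes, Gbp3, in 0 of the 13 lower ones and in 3.54% of all promoters.

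The counting intervals for cycling cells overlapped between Foxp3-positive and Foxp3 = 0 cells. A Mki67 or Top2a UMI was found in 56.5% (41.1 to 71.1) of Foxp3-positive and 46.4% (40.7 to 52.2) of Foxp3 = 0 cells of the WT host, and in 54.2% (32.8 to 74.4) and 60.6% (51.7 to 69.0) of the MARCH1-/- host. Thinned to 1000 UMIs, Mki67 was found in 20.5% and 16.2% of the cells of the WT host and in 16.7% and 20.5% of those of the MARCH1-/- host. Of 37 cell cycle genes measured, 19 were higher and 3 lower in both libraries, none 2-fold in both, with medians of 0.32 and 0.35. Without the largest Foxp3-positive cell of each library 15 were higher in both and the medians were 0.21 and -0.02, and with per-cell averages 11 were and the medians were 0.17 and -0.32.

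Genes of that list lay on both sides in the MARCH1-/- host. Its Foxp3-positive cells held less of the DNA replication genes Pcna (124 against 268 CPM), Clspn (57.6 against 143 CPM) and Hells (39.9 against 105 CPM) than its Foxp3 = 0 cells, and more of the mitotic genes Ube2c (559 against 264 CPM), Cdk1 (244 against 101 CPM) and Plk1 (97.5 against 43.7 CPM). In the WT host Pcna was at 233 against 172 CPM and Ube2c at 158 against 140 CPM. The Cdk1 UMIs of the MARCH1-/- host came from 4 Foxp3-positive cells. These 6 genes were picked for their direction after the values were seen. Without the largest Foxp3-positive cell the log2 ratios of Ube2c, Cdk1 and Plk1 in the MARCH1-/- host were 0.87, 0.93 and 1.01, and with per-cell averages 0.58, 0.77 and 0.60. Over the list, 5 genes were 2-fold higher in that library, 1 without that cell and 0 with per-cell averages. Among cells without a Mki67 or Top2a UMI, Pcna was at 0.67 and Hells at 1.93.

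The 70 cells differed among themselves. From the WT host 16 cells held both Ikzf2 and Klrg1, 16 held Ikzf2 alone, 5 Klrg1 alone and 9 neither; in the MARCH1-/- host 14 held both. Klrg1 and Gzmb were found together in 10 and 5 cells, Klrg1 and Il10 in 15 and 7, and Klrg1 and Gata3 in 16 and 13. Of the 6 cells of the WT host with Il13, 5 also had Ikzf2. These 5 held 1, 1, 1, 7 and 11 Il13 UMIs, and the cell with 11 had 1 Foxp3 and 1 Ikzf2 UMI. UMIs per cell enter all such counts.

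Levels were also read by the number of Foxp3 UMIs in a cell, with 0, 1, 2 and 3 or more held by 306, 22, 12 and 12 cells of the WT host and 132, 10, 4 and 10 of the MARCH1-/- host. The step from no Foxp3 UMI to 1, the edge of the rule, took Ikzf2 from 99.5 to 323 CPM in the WT host and from 124 to 532 CPM in the MARCH1-/- host, and Klrg1 from 48.9 to 205 and from 82.2 to 567 CPM. Above 1 UMI the libraries differed in order. In the WT host Klrg1 went on to 444 and 687 CPM and Ikzf2 to 298 and 767 CPM. In the MARCH1-/- host, by contrast, Klrg1 was at 369 and 305 CPM and Ikzf2 at 806 and 298 CPM. These orders rest on few cells. At 2 Foxp3 UMIs the 4 cells of the MARCH1-/- host held 0, 4, 5 and 15 Ikzf2 UMIs. The same cells held 1, 3, 0 and 7 Klrg1 UMIs. At 3 or more in the WT host, 1 cell held 23 Ikzf2 UMIs. Il13 in the WT host was at 904, 124, 16.1 and 13.2 CPM.

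**Figure D4:**
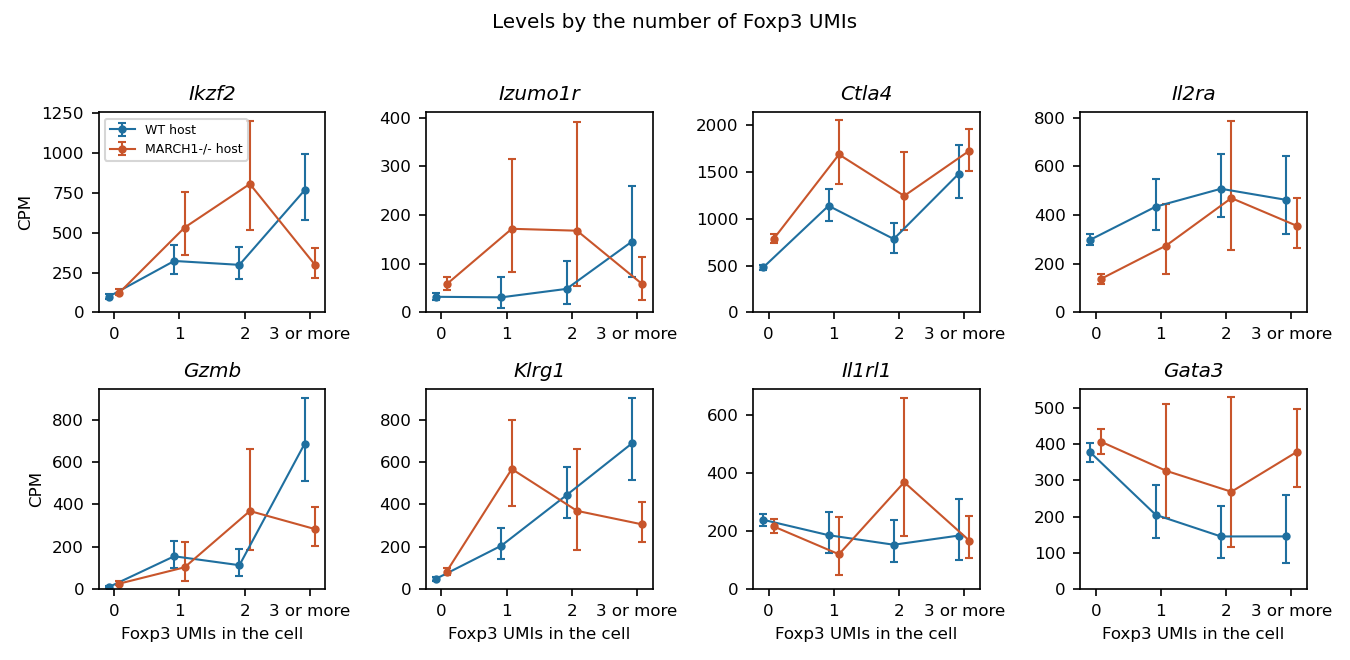
Levels of 8 genes in CPM (vertical axes, from 0) by the number of Foxp3 UMIs in the cell (horizontal axes), summed over the cells of each library, with exact 95% Poisson intervals as error bars. Ikzf2, Ctla4, Gzmb and Klrg1 are higher at 1 Foxp3 UMI than at 0 in both libraries, and above 1 the order of Ikzf2 and Klrg1 differs between the libraries.

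The last comparison set the Foxp3-positive cells of the MARCH1-/- host beside those of the WT host. Part of the genes that mark the cells had log2 ratios near 0 in summed cells. Ikzf2 was at 0.06 (-0.32 to 0.44), Gzmb at -0.02 (-0.53 to 0.47) and Klrg1 at -0.03 (-0.43 to 0.37). Icos was at 0.09 (-0.24 to 0.42) and Foxp3 at -0.10. With per-cell averages, however, Klrg1 was at 0.50 and Gzmb at 0.28. The average for Ikzf2 was 501 CPM (WT host) and 804 CPM (MARCH1-/- host), and for Foxp3 454 and 373 CPM. Ctla4 was higher at 0.60 (0.39 to 0.81), as it was in Foxp3 = 0 cells at 0.71. Izumo1r was at 0.74, with a wide interval (-0.17 to 1.65), beside 0.85 in Foxp3 = 0 cells. In summed cells none of the 14 Treg identity genes differed 2-fold between hosts, with a median of 0.10 beside 0.18 in Foxp3 = 0 cells. With per-cell averages 2 of the 14 were 2-fold higher in the MARCH1-/- host, with a median of 0.33. Among cells without a Mki67 or Top2a UMI 2 of 10 measured were 2-fold higher there, with a median of 0.22. These are differences between 2 libraries, in which host and library cannot be told apart.

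Over all genes, 646 of 4813 were 2-fold higher in Foxp3-positive cells of the MARCH1-/- host (13.4%) and 310 lower (6.44%), and in Foxp3 = 0 cells 315 (6.54%) and 154 (3.2%). Of these, 150 higher and 85 lower were shared. The median ratio of all genes was shifted by 0.25 on the log2 scale in Foxp3-positive and 0.24 in Foxp3 = 0 cells, and with the scale set to that median the split was 357 higher and 514 lower. Ribosomal protein genes took 25.2% of UMIs in Foxp3-positive cells of the WT host and 18.3% of the MARCH1-/- host. Ratios below should be read against the shift of 0.25.

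The leading higher genes were higher in Foxp3 = 0 cells too. Cebpb, a stress and inflammation transcription factor, was at 27.7 CPM in the WT host and 199.5 CPM in the MARCH1-/- host, a log2 ratio of 2.85 beside 1.71 in Foxp3 = 0 cells. Dusp1 and Dusp2, phosphatases that switch off MAP kinases, were at 2.08 and 2.58 beside 1.5 and 1.53. Cdk2ap1, a cell cycle regulator, was at 3.62 (1.89 to 6.00, from 3 UMIs in the WT host) beside 4.09 and Hypk, a chaperone partner, at 3.38 beside 3.39. Ube2s, a ubiquitin enzyme of mitosis, was at 1.98 beside 0.95. Rnaset2b and the tubulins Tuba1a, Tuba1b and Tuba1c, at 4.20, 2.29, 1.91 and 2.24, have near-identical copies and are uncertain.

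On the lower side, Tff1, a secreted trefoil peptide, had 33 UMIs in 7 Foxp3-positive cells of the WT host against 1 UMI in the MARCH1-/- host, a log2 ratio of -4.37 (-9.71 to -1.79) beside -0.54 in Foxp3 = 0 cells. Ccr8, a chemokine receptor of tissue Treg and Th2 cells, had 20 and 0 UMIs, and 136 and 9 in Foxp3 = 0 cells. Tigit, an inhibitory receptor, had 15 and 2 UMIs, and 69 and 3 in Foxp3 = 0 cells; it was named after its values were seen. Tomm7, a mitochondrial import subunit, was at -1.94 beside -1.23 and Fam177a at -2.91 beside -2.80. Gstp1 and the histones Hist1h2ap, Hist1h2ae and Hist1h4h, at -3.28, -2.33, -2.18 and -3.05, have near-identical copies and are uncertain.

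By list, 12 of 37 cell cycle genes, 7 of 19 T cell receptor response genes and 5 of 20 interferon genes were 2-fold higher in Foxp3-positive cells of the MARCH1-/- host, and 1, 1 and 0 lower. Their medians were 0.68, 0.92 and 0.53, beside 0.83, 0.55 and -0.33 in Foxp3 = 0 cells. Summed over the interferon list, however, the level in Foxp3-positive cells was lower in the MARCH1-/- host, at 6380 CPM against 8217 CPM in the WT host. In Foxp3 = 0 cells these sums were 3622 and 7350 CPM. With per-cell averages 6 cell cycle genes were 2-fold higher, and without the cell richest in interferon genes 1 of 18 interferon genes was, with a median of 0.15. The gap between the ratios in Foxp3-positive and Foxp3 = 0 cells was seen from the other side in Gzmb and Klrg1, which were at -0.02 and -0.03 in Foxp3-positive cells and at 1.38 and 0.75 in Foxp3 = 0 cells, a difference of -1.40 and -0.78; among cells without a Mki67 or Top2a UMI, Gzmb and Klrg1 were at 1.01 and 1.06 in Foxp3-positive cells. Il10 was at 0.19 in Foxp3-positive and -1.01 in Foxp3 = 0 cells.

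**Figure D5:**
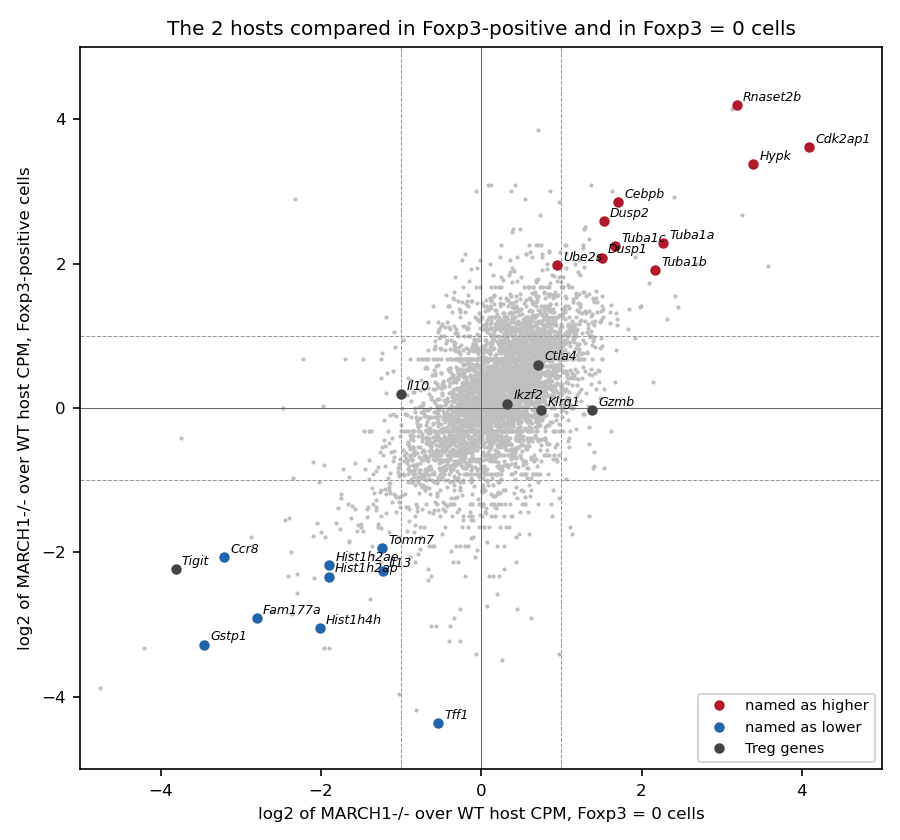
Log2 ratio of the MARCH1-/- to the WT host in Foxp3 = 0 cells (horizontal) and in Foxp3-positive cells (vertical) for 4813 genes in grey, with the named genes in colour and dashed lines at 2-fold. Ikzf2, Ctla4, Gzmb, Klrg1, Tigit and Il10 were added in dark grey as Treg genes. Most named genes lie on the same side in both kinds of cell, Tff1 stands apart at -4.37 against -0.54, and Ikzf2, Klrg1 and Gzmb lie near 0 on the vertical axis.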

How the data were processed

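The deposited data were 2 single-cell libraries made with the 10x 3′ v3.1 kit, 1 per host, as whole-number UMI counts per gene and barcode that the authors deposited unnormalized. The submitters' processing notes name Cell Ranger 3.1.0 and the mm10 genome, while the matrix headers name Cell Ranger software version 4, and the annotation version was not given in the sources used here. The 2 libraries held 3753437 and 1934068 UMIs over 32285 genes.

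Cells were called with at least 500 UMIs, at least 250 genes and at most 10% mitochondrially encoded UMIs, and Foxp3-positive cells by at least 1 Foxp3 UMI. The cells and gene lists were chosen with earlier results of these data known. Counts of each group of cells were summed and scaled to 1e6 UMIs (CPM). Genes with at least 100 UMIs over all cells were compared, without Foxp3. A call was a 2-fold ratio, with no test because each host gave 1 library. Intervals are exact Poisson, exact binomial (Clopper-Pearson) or exact conditional binomial at 95%, for counting error only. A sum of 0 was set to a floor of 3 UMIs per group for ratios. Shares of cells were also computed after thinning each cell to 1000 UMIs. Scrublet in scanpy 1.11.5 called 5 doublets in each library, 1 of them Foxp3-positive in each; they were kept.

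The genes named were Foxp3, Ikzf2, Izumo1r and Ctla4, then the 15 higher and 15 lower than in Foxp3 = 0 cells, and the 10 higher and 10 lower between hosts, whose counting interval lay farthest from 0, with list members as examples; other genes are marked where named, and a few that the rule takes are not reported here. Promoters came from RefSeq (GRCm38.p6) and gene positions from GENCODE M21 (GRCm38). The comparison was also run on simulated Poisson counts, drawn independently for each cell. Those counts do not cover a gene whose UMIs sit in few cells. Alternatives were other Foxp3 and UMI minimums, doublets removed, per-cell averages, a median scale, cells without cycling genes and other count minimums. Software was scipy 1.17.1 and numpy 2.4.6 for the intervals, pandas 2.3.3 for tables and matplotlib 3.10.9 for plots, under Python 3.11.15.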

Additional observations from a re-analysis of the deposited data

Results flagged for a closer look

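The log2 ratio of Foxp3-positive to Foxp3 = 0 cells had opposite signs in the 2 libraries in 2019 of the 4813 genes, and its counting intervals lay on opposite sides of 0 in 21. Of the 245 named and list genes, 5 were such genes; the difference was not tested. As the log2 ratio in the MARCH1-/- host minus that in the WT host, the replication genes differed by -2.04 for Clspn, -1.61 for Mcm5 and -1.55 for Pcna. Pcna had 84 UMIs in Foxp3-positive cells of the WT host and 28 of the MARCH1-/- host, Clspn 41 and 13, and Mcm5 25 and 13. Ube2s, a ubiquitin enzyme of mitosis, differed by 1.04, with 57 and 141 UMIs. Ifng, which encodes interferon gamma, differed by 5.23, with 0 UMIs in Foxp3-positive cells of the WT host and 14 of the MARCH1-/- host, 12 of them in 1 cell.

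Foxp3 UMIs were also found outside the called cells. Barcodes of at most 100 UMIs held 57 in the WT host (52.5 CPM) and 9 in the MARCH1-/- host (27.6 CPM). In the WT host 142 barcodes above 100 UMIs were not called as cells, and 11 of them held 12 Foxp3 UMIs (123 CPM); the 32 such barcodes of the MARCH1-/- host held 0.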

How the results depend on the processing

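No paired analysis was possible because the labels give no replicate numbers and each host gave 1 library. The share of Foxp3-positive cells in the WT and the MARCH1-/- host was 6.82% and 8.97% with at least 2 Foxp3 UMIs, and 3.52% and 6.41% after thinning. The count of genes 2-fold higher in both libraries, 26, became 40 with at least 2 Foxp3 UMIs, 48 with per-cell averages, 13 in cells without a Mki67 or Top2a UMI, and 45 and 11 with at least 50 and 200 UMIs per gene; the 71 lower became 29, 128 and 38 in the last 3 of these. Of the 26 and 71, 5 and 9 were also called in cells without Mki67 or Top2a, where 1933 genes were measured. Between hosts, the 646 higher became 357 on the median scale, 268 without Mki67 or Top2a and 1119 and 324 with 50 and 200 UMIs, and the 310 lower became 504 with per-cell averages, 514 on the median scale and 564 and 154 with 50 and 200 UMIs. Directions reversed in cells without Mki67 or Top2a for Cxcl10 (-2.06), Nrgn (1.08), Tnfrsf9 (-0.12), Ifit3 (-1.95) and Igtp (-0.023) in the WT host and for Prdm1 (-0.29), Pcna (0.67) and Hells (1.93) in the MARCH1-/- host, and with per-cell averages for Ifit3 in the WT host (-0.30); the causes were not tested. Of all 1523 values of single genes and lists under an alternative, 1325 stayed within their counting interval or count limit and 189 moved beyond it. Ratios below 2-fold also changed sign, 18 of those that moved beyond and 25 of those that stayed within; among the 18 were Il10 in the WT host with at least 5000 UMIs per cell (-0.69) and Areg in cells without Mki67 or Top2a (-2.07 and -0.43). Leaving out the largest Foxp3-positive cell of each library, or the one richest in interferon genes, both chosen after seeing the data, gave 36 and 23 genes higher and 60 and 70 lower. The 24 cells of the MARCH1-/- host limit every value.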

Other observations

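Of 16 inhibitory and costimulatory receptors measured, 2 were 2-fold higher and 2 lower in Foxp3-positive cells of both libraries, with medians of 0.30 and 0.22. Of 15 exhaustion-associated genes 1 was higher and 1 lower, with medians of -0.07 and 0.01; Pdcd1, which encodes PD-1, was at -0.65 and -0.82 and Tox, a factor of exhausted T cells, at -1.10 and -0.66. Of 19 T cell receptor response genes 1 was 2-fold higher in both, with medians of -0.13 and 0.19. Of 11 central and naive genes 1 was higher and 3 lower, Bcl2, Ccr7 and Tcf7, with medians of -0.43 and -0.16.

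T cell receptor V segments were counted by gene name. In the WT host, Foxp3-positive cells held 38 UMIs of 16 Trav and 22 UMIs of 8 Trbv segments, and Trbv2 was found in 6 cells. In the MARCH1-/- host they held 5 UMIs of 4 Trav and 10 of 4 Trbv segments, with Trbv2 in 4 cells.

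Ighm, the constant region gene of IgM, was chosen after its values were seen. It had 28 UMIs in 7 Foxp3-positive cells of the WT host against 25 in 17 Foxp3 = 0 cells, and 85 in 12 against 73 in 28 in the MARCH1-/- host, 6.86-fold and 6.97-fold higher. Up to 12 and 33 of these UMIs were in 1 cell, and the B cell markers Ms4a1, Pax5 and Cd79a were at 0 in all 70 cells. Summed, the 9 B cell markers, mostly Cd74 in Foxp3-positive cells, stood above Foxp3 = 0 cells. They were at 61.0 against 12.7 CPM in the WT host and 57.6 against 34.8 CPM in the MARCH1-/- host.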
